A study of Mus musculus with 18 samples.

Results

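The BCL-2 family genes examined here are 10 genes whose products set whether a cell survives or enters mitochondrial apoptosis: Bcl2, Bcl2l1, Mcl1, Bcl2a1b, Bcl2a1d, Bcl2l11, Bax, Bak1, Bid and Pmaip1. They were taken by symbol from a table of 25926 genes, and all 10 were present once. RNA-seq was performed on macrophages grown from the bone marrow of C57BL/6J mice (BMDMs) over 7 days with 50 ng/mL M-CSF. They occupied the upper chamber of a Transwell (0.4 μm pores), with tubular epithelial cells of the kidney (TECs) in the lower one. In the NC group, BMDMs given PBS stood above untreated TECs. In the COM group, BMDMs given PBS stood above TECs exposed to 100 μg/mL calcium oxalate monohydrate, the main mineral of kidney stones, for 24 h. In the COM+Met group, BMDMs treated with 5 mM Met, an abbreviation that the labels leave unexplained, stood above TECs exposed to the same crystals. Each group had 6 samples, 18 in all. The labels name no genetic change, sex or age and do not tell if replicates derive from separate mice or cultures. Each p-value therefore measures sample-to-sample spread only, and that spread may be technical. The culture is a model in which crystals met the TECs and the macrophages shared only the medium.

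Mitochondrial apoptosis is decided by 3 classes of BCL-2 protein. Pro-survival members (BCL-2, BCL-XL from Bcl2l1, MCL-1 and A1 from the Bcl2a1 genes) hold the effectors BAX and BAK in check, and BH3-only members (BIM from Bcl2l11, BID and NOXA from Pmaip1) either neutralise the pro-survival members or activate the effectors directly. Once active, BAX and BAK open pores in the outer mitochondrial membrane, and the released cytochrome c starts caspase activation. In myeloid cells MCL-1 is known to be required for survival, A1 is an NF-kappa B target induced by inflammatory signals, and BIM rises when growth factor is withdrawn.

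Values are FPKM, fragments scaled to gene length and to the total of the sample, so that levels of different genes can be set side by side. The read depth cannot be read from them. The FPKM of all genes summed to 415700 to 430800 in NC, 380700 to 449200 in COM and 430200 to 441300 in COM+Met. Some libraries stood apart from others of their own group. Over 10751 genes, NC-5 and NC-6 correlated with NC-1 to NC-4 at r = 0.938 to 0.962, whereas NC-1 to NC-4 correlated among themselves at 0.985 to 0.995. COM-4 and COM-5 correlated with COM-1 to COM-3 at 0.948 to 0.951, and with the COM+Met samples at 0.977 to 0.982. COM-6 had the lowest FPKM sum and reached at most 0.935 with any sample of its group. The labels give no batch or date, and values without these libraries, or the values of the separate samples, are given beside results that turned on them. All 10 macrophage markers checked averaged 1 FPKM or more in every group. Among 14 TEC markers only Cdh1 averaged 1 FPKM or more in any group, with 12.9 ± 3.14 FPKM (SD, n = 6) in NC, 0.555 ± 0.215 in COM and 0.0693 ± 0.0457 in COM+Met. Of the same list, Umod, Krt18 and Havcr1 were at 0 in all groups. Epcam averaged 0.879 FPKM in NC, 0.186 in COM and 0.0230 in COM+Met, and Aqp1 averaged 0.55, 0.0141 and 0.0130 FPKM. No lymphoid marker reached 1 FPKM in any group (7 of 8 were in the table), whereas 10 of 14 neutrophil markers did so in NC, 8 in COM and 7 in COM+Met. Summed neutrophil markers ranged from 551 to 1075 FPKM in NC, 1237 to 1866 in COM and 738 to 860 in COM+Met, but Lcn2 alone carried the higher sum in COM. Without Lcn2 the other 13 summed to 541 to 1036 FPKM in NC, 194 to 622 in COM and 91.0 to 149 in COM+Met, with 584 to 622 in COM-1 to COM-3 and 194 to 251 in COM-4 to COM-6. Summed markers of cycling cells (10 genes) ranged from 197 to 427 FPKM in NC, 16.7 to 33.2 in COM and 20.6 to 23.6 in COM+Met. The part of these shifts in the results below was not tested, and in bulk RNA fewer cells of a type and less RNA per cell cannot be told apart.

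In untreated coculture the family was led by Mcl1 (201 ± 5.13 FPKM, SD, n = 6) and Bcl2a1b (137 ± 46.1), followed by Bax, Bcl2a1d, Bak1, Bcl2l11, Bcl2l1, Pmaip1, Bid and Bcl2. The sample values of neighbours in this order overlapped from Mcl1 down to Bcl2a1d and from Bcl2l1 to Bid. In COM, Bcl2a1b came first with a mean of 254 FPKM, although its values overlapped with those of Mcl1, and Pmaip1 dropped to the place above Bcl2. Under COM+Met both Bcl2a1b and Bcl2a1d had means above Mcl1, with values of Bcl2a1d and Mcl1 overlapping, and Bid stood above Bcl2l11 without overlap. Bcl2 was the lowest member in all 3 groups, with means of 1.20 to 1.39 FPKM, and all 10 members passed the filter of a mean of at least 1 FPKM.

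**Figure D1:**
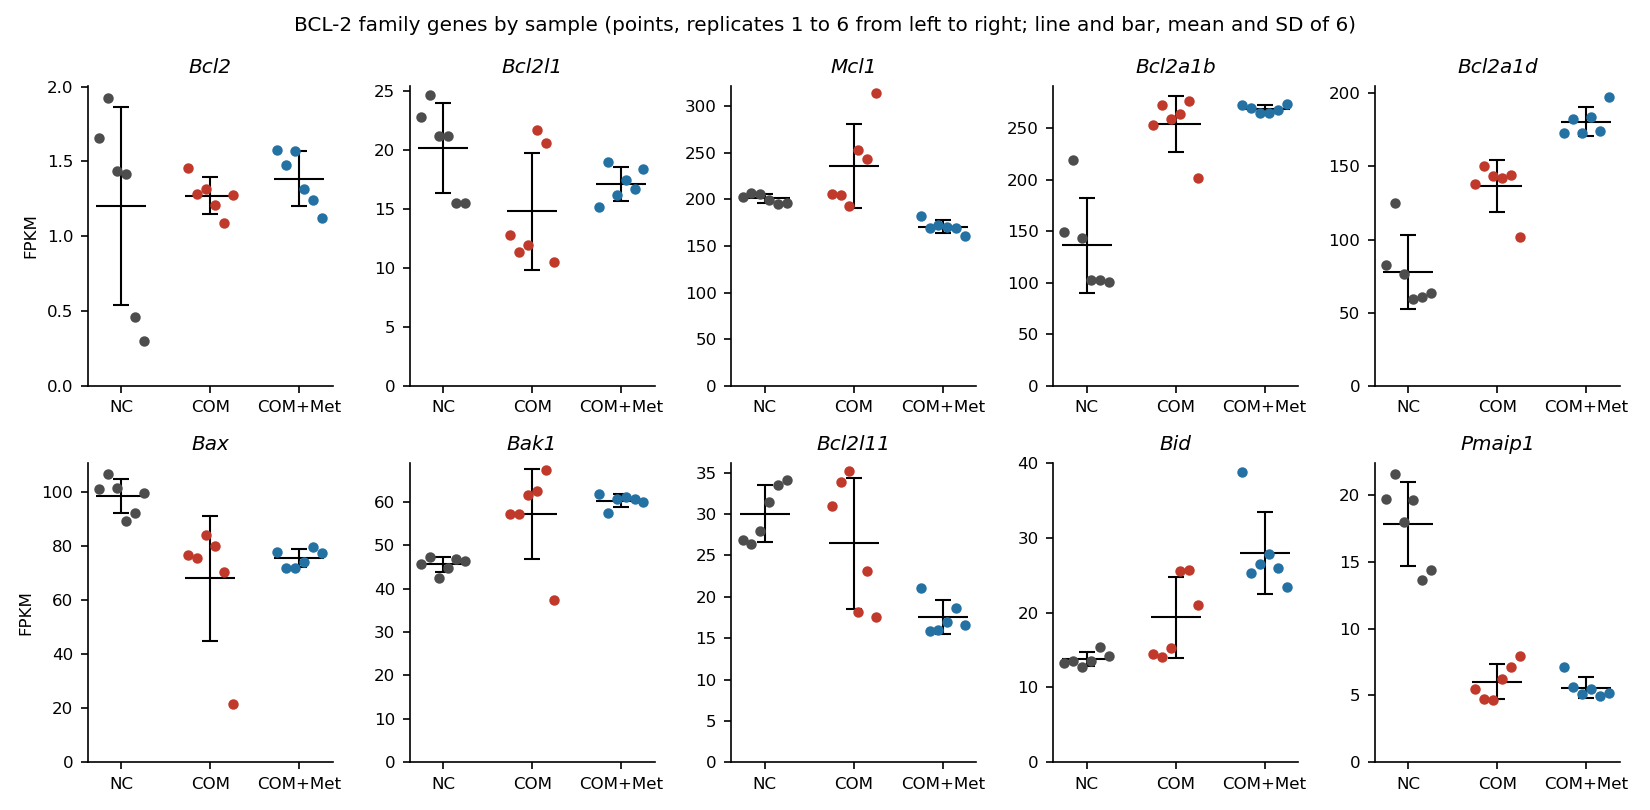
FPKM of the 10 genes in each of 18 samples, on a linear axis from 0. Points are samples, the horizontal line is the group mean and the bar its SD over 6 samples. The 6 NC samples of Pmaip1 lie between 13.6 and 21.6 FPKM, above every COM and COM+Met sample, and Bcl2l11 and Bid are each split within COM.

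Both A1 genes rose in BMDMs above crystal-exposed TECs. Bcl2a1b measured 149, 220, 144, 103, 103 and 100 FPKM in the NC samples, in the order of their numbers, against 253, 272, 259, 264, 276 and 202 FPKM in the COM samples. It measured 272, 269, 265, 265, 268 and 274 FPKM in COM+Met. Only NC-2 reached the lowest COM value, that of COM-6, and no COM+Met sample fell to the NC range. The log2 fold change in COM versus NC was 0.95 ± 0.19 (SE, limma adjusted p = 0.00107), and COM+Met differed from COM by 0.086 with a 95% interval of -0.11 to 0.28 (adjusted p = 0.566). COM+Met versus NC gave 1.03 ± 0.16 (adjusted p = 8.2e-05).

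Bcl2a1d measured 82.5, 125, 76.2, 59.2, 60.4 and 63.3 FPKM in NC, and 138, 150, 143, 142, 144 and 102 FPKM in COM. In COM+Met it measured 173, 182, 173, 184, 174 and 198 FPKM, so that every COM+Met sample lay above every COM sample. It rose by 0.85 ± 0.18 on the log2 scale in COM versus NC (limma adjusted p = 0.00171) and by a further 0.41 ± 0.10 in COM+Met versus COM (adjusted p = 0.0185). The latter call was lost without COM+Met-6 (0.38, adjusted p = 0.0507) and with all 18 samples in 1 fit (adjusted p = 0.0698). Relative to Bcl2a1d, Bcl2a1b was 1.59 to 1.89 times as high in NC, 1.81 to 1.98 times in COM and 1.38 to 1.58 times in COM+Met, the COM+Met samples being below all others. Another A1 gene, Bcl2a1a, which is no member, behaved in the same direction, with 64.9 ± 24.6 FPKM in NC, 143 ± 13.7 in COM and 164 ± 9.83 in COM+Met.

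The A1 genes are near-identical copies, and their separate values are uncertain because the authors' counting of shared reads is not given in the sources used here. In GENCODE M21 (GRCm38) Bcl2a1b lies at chr9:89199209-89207827 on the plus strand and Bcl2a1d at chr9:88723285-88731914 on the minus strand, each with 2 exons. Their coding sequences are both 516 bases long and differ at 6 positions (98.8% identity). Of all 768 stretches of 50 bases in the Bcl2a1b transcript, 442 (57.6%) also occur in that of Bcl2a1d, and of 718 stretches of 100 bases, 223 (31.1%) do. The first 300 coding bases are shown because reads falling between the differing positions fit both genes. Capitals mark the 3 positions at which the copies differ in this stretch:
Bcl2a1b: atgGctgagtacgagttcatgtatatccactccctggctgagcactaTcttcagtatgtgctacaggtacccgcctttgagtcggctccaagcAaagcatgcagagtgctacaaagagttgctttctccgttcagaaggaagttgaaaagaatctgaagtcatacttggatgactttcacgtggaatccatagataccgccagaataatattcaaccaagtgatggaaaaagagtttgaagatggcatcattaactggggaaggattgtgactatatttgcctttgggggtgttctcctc
Bcl2a1d: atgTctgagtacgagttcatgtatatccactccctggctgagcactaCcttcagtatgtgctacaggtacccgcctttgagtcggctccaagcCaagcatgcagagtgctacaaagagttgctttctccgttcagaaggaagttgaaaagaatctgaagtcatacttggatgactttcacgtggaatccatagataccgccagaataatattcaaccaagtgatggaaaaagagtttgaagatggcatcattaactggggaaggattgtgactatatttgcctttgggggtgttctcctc
No capital follows after the last one shown, so that a read from the rest of this stretch fits either copy. Gm29094, a gene model that overlaps 8449 bases of Bcl2a1b on the same strand, had 2.81 ± 1.83 FPKM in NC and 7.70 ± 1.62 in COM. The antisense gene Gm10634 overlaps all 8630 bases of Bcl2a1d on the opposite strand, and its part in the Bcl2a1d values was not tested. The sum of Bcl2a1a, Bcl2a1b and Bcl2a1d, which does not depend on how reads were divided among these 3 copies if lengths are alike, ranged from 207 to 451 FPKM in NC, 430 to 588 in COM and 594 to 634 in COM+Met.

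Mcl1, which encodes a short-lived survival protein (chr3:95658788-95663176), was lower in COM+Met than in both other groups. It measured 202, 207, 206, 200, 194 and 196 FPKM in NC, 206, 204, 193, 252, 243 and 314 FPKM in COM, and 182, 170, 173, 170, 169 and 160 FPKM in COM+Met. COM-1 to COM-3 stood within or near the NC range, COM-4 to COM-6 stood above it, and no COM+Met sample reached the other groups. It fell by 0.44 ± 0.12 on the log2 scale in COM+Met versus COM (limma adjusted p = 0.0242), a call that was lost without any 1 of COM+Met-2 to COM+Met-6 (adjusted p up to 0.0602) and with median-of-ratios size factors (adjusted p = 0.106). Against NC it fell by 0.23 ± 0.039 (adjusted p = 0.00012), but the direction turned with size factors (0.079, adjusted p = 0.10). COM versus NC gave 0.21 with a 95% interval of -0.057 to 0.47 (adjusted p = 0.168). This value was 0.41 (adjusted p = 0.00915) when COM-1 to COM-3 were left out, and 0.0016 (adjusted p = 0.98) when COM-4 to COM-6 were.

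Bcl2l1, the BCL-XL gene (chr2:152780668-152831728), did not pass the main test in any comparison. Whether it passed in other fits depended on the samples left out and on the fit. It measured 22.8, 24.7, 21.2, 21.2, 15.5 and 15.5 FPKM in NC, 12.8, 11.4, 11.95, 21.6, 20.6 and 10.5 FPKM in COM, and 15.1 to 19.0 FPKM in COM+Met. The COM samples were split, with COM-4 and COM-5 at the level of NC-3 and NC-4 and the other 4 below every NC sample. COM versus NC gave -0.45 (95% interval -0.87 to -0.036, limma adjusted p = 0.0633), and it passed the threshold when NC-5, NC-6, COM-4 and COM-5 were each left out in turn (adjusted p = 0.0494, 0.0488, 0.0212 and 0.0289). Without COM-4 to COM-6 the value was -0.68 (limma adjusted p = 0.0042), and without COM-1 to COM-3 it was -0.23 (adjusted p = 0.416). The threshold was also passed with all 18 samples in 1 fit (adjusted p = 0.0235) and with sample weights (-0.79, adjusted p = 5.0e-06). Size factors gave -0.15 (adjusted p = 0.598). COM+Met differed from COM by 0.25 (95% interval -0.11 to 0.62, limma adjusted p = 0.357). The difference was 0.48 (adjusted p = 0.000115) without COM-4 to COM-6, and 0.026 (adjusted p = 0.931) without COM-1 to COM-3. COM+Met versus NC gave -0.20 (95% interval -0.44 to 0.039, adjusted p = 0.115). Without NC-5 and NC-6 this was -0.37 (adjusted p = 0.000231), and without either of them -0.27 (adjusted p = 0.0297 and 0.029).

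Bcl2, the founding member of the family (chr1:106538178-106714274), was close to the filter on low values. It ranged from 0.300 to 1.92 FPKM in NC, where NC-5 (0.462) and NC-6 (0.300) were the lowest, from 1.09 to 1.45 in COM and from 1.12 to 1.58 in COM+Met. The groups overlapped, and the adjusted p of limma was 0.644 for COM versus NC, 0.609 for COM+Met versus COM and 0.409 for COM+Met versus NC. With quantile normalisation Bcl2 passed as higher in COM versus NC (0.41, limma adjusted p = 0.0292) and in COM+Met versus NC (0.57, adjusted p = 0.00313).

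Summed over the 5 pro-survival genes, FPKM ranged from 374 to 578 in NC, 608 to 686 in COM and 629 to 651 in COM+Met, without overlap between NC and the other groups. Mcl1 made up a median of 48.9% of the sum in NC, 34.6% in COM and 26.8% in COM+Met. Bcl2a1b and Bcl2a1d together made up 46.4%, 62.7% and 70.3%.

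The effectors Bax (chr7:45461697-45466898) and Bak1 (chr17:27019810-27029009) stood in opposite directions relative to NC. Bax measured 101, 107, 102, 89.4, 92.4 and 99.6 FPKM in NC, 76.6, 75.8, 84.0, 80.1, 70.5 and 21.7 FPKM in COM, and 78.0, 71.9, 71.8, 74.0, 79.7 and 77.5 FPKM in COM+Met. Every COM and COM+Met sample lay below every NC sample, and COM-6 lay far below the rest. COM versus NC gave -0.64 ± 0.28 on the log2 scale (limma adjusted p = 0.0654), -0.34 without COM-6 (adjusted p = 0.00141), and -0.32 without COM-4 to COM-6 (adjusted p = 0.00354). With size factors and all samples of both groups it gave -0.33 (adjusted p = 0.263). COM+Met versus NC fell by 0.38 ± 0.050 (adjusted p = 1.67e-05), but this call was lost with size factors (-0.067, adjusted p = 0.306), that is, once the median gene was set to no change, and with all 18 samples in 1 fit (adjusted p = 0.165).

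Bak1 measured 45.8, 47.2, 42.3, 44.7, 46.8 and 46.4 FPKM in NC, 57.1, 57.2, 61.5, 62.4, 67.2 and 37.5 FPKM in COM, and 61.7, 57.5, 60.5, 61.1, 60.5 and 60.0 FPKM in COM+Met. Except for COM-6, all samples above crystal-exposed TECs were higher than all NC samples. COM versus NC gave 0.30 ± 0.13 (limma adjusted p = 0.0638), 0.41 without COM-6 (adjusted p = 0.000197), and COM+Met rose over NC by 0.40 ± 0.037 (adjusted p = 6.4e-07). Bax was 1.98 to 2.40 times as high as Bak1 in NC, 0.578 to 1.37 times in COM and 1.19 to 1.32 times in COM+Met. Neither effector passed the test in COM+Met versus COM, with adjusted p = 0.564 (95% interval -0.33 to 0.86) for Bax and 0.646 (-0.17 to 0.36) for Bak1. In the annotation Bak1 lies wholly within Ggnbp1 on the opposite strand. Strand use in the counting is not given in the sources used here. Ggnbp1 was listed with 2.30 ± 0.567 FPKM in NC and 1.31 ± 0.681 in COM, and its part in the Bak1 values was not tested. The protein-coding gene model Gm45808 overlaps Bax by 915 bases on the same strand, and its part in the Bax values was not tested.

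Pmaip1, which encodes the MCL-1 and A1 antagonist NOXA, fell in both groups above crystal-exposed TECs. It measured 19.7, 21.6, 17.98, 19.6, 13.6 and 14.4 FPKM in NC, 5.51, 4.76, 4.63, 6.26, 7.12 and 7.97 FPKM in COM, and 7.09, 5.64, 5.13, 5.49, 4.94 and 5.20 FPKM in COM+Met. Neither COM nor COM+Met overlapped with NC. The log2 fold change in COM versus NC was -1.42 ± 0.15 (limma adjusted p = 7.6e-06) and stayed between -1.50 and -1.36 when single samples were left out. COM+Met versus NC gave -1.51 ± 0.11 (adjusted p = 7.25e-08), and COM+Met versus COM gave -0.084 (95% interval -0.36 to 0.19, adjusted p = 0.701).

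Bcl2l11, encoding BIM (chr2:128126038-128162547), was split within COM. It measured 26.9, 26.4, 27.9, 31.5, 33.5 and 34.1 FPKM in NC, 31.0, 33.9, 35.2, 18.2, 23.1 and 17.5 FPKM in COM, and 21.1, 15.8, 15.95, 16.97, 18.7 and 16.6 FPKM in COM+Met. COM-1 to COM-3 lay above the NC median, whereas COM-4 to COM-6 lay below all NC samples and in or just above the COM+Met range. COM+Met fell by 0.75 ± 0.085 relative to NC (limma adjusted p = 4.0e-06). COM+Met versus COM gave -0.52 ± 0.17 (limma adjusted p = 0.0661). This comparison passed with equal sums, size factors and quantile normalisation (adjusted p = 0.0419, 0.0151 and 0.0186). It also passed with all 18 samples in 1 fit (0.0275), sample weights (2.4e-07), and without COM-4 (0.0274) or COM-6 (0.0125). It gave -0.90 (adjusted p = 3.75e-06) without COM-4 to COM-6, but -0.15 (adjusted p = 0.348) without COM-1 to COM-3. COM versus NC gave -0.22 (95% interval -0.61 to 0.16, adjusted p = 0.308), -0.60 (adjusted p = 0.00301) without COM-1 to COM-3, and 0.15 (adjusted p = 0.21) without COM-4 to COM-6. The neutrophil and monocyte gene S100a8 was split in the same way, with 298, 276, 301, 51.9, 56.4 and 28.4 FPKM in COM, 189 to 324 in NC and 15.3 to 39.6 in COM+Met. Another gene of the neutrophil list, Lcn2, was split in the opposite direction, with 640 to 721 FPKM in COM-1 to COM-3 and 1533 to 1672 in COM-4 to COM-6. The part of other cells in the Bcl2l11 values was not tested.

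Bid, whose product links death receptors to mitochondria after cleavage by caspase-8 (gene at chr6:120891930-120916853), was split in the opposite direction to Bcl2l11. It measured 13.2, 13.5, 12.7, 13.5, 15.3 and 14.2 FPKM in NC, 14.5, 14.1, 15.3, 25.6, 25.6 and 21.0 FPKM in COM, and 38.7, 25.3, 26.5, 27.8, 26.0 and 23.4 FPKM in COM+Met. COM-1 to COM-3 overlapped with NC, COM-4 to COM-6 did not, and all COM+Met samples lay above all NC samples. Bid rose in COM+Met versus NC by 0.96 ± 0.10 (limma adjusted p = 1.65e-06). COM versus NC gave 0.42 ± 0.16 (adjusted p = 0.0364), but only 0.084 (adjusted p = 0.298) without COM-4 to COM-6. The call was also lost without NC-1, NC-2, NC-3, NC-4, NC-6, COM-4, COM-5 or COM-6 (0.34 to 0.43, adjusted p = 0.0532 to 0.0806), and without a filter on low values (adjusted p = 0.0508). COM+Met versus COM gave 0.53 ± 0.17 (limma adjusted p = 0.061), and passed the threshold without COM-4, COM-5 or COM-6 (adjusted p = 0.0294, 0.0298 and 0.0397). It gave 0.87 (adjusted p = 9.69e-05) without COM-4 to COM-6, but 0.19 (adjusted p = 0.334) without COM-1 to COM-3. Bcl2l13, which overlaps Bid by 913 bases on the opposite strand, had 6.40 ± 1.05 FPKM in NC and 6.28 ± 1.69 in COM.

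Within the summed FPKM of these 3 BH3-only genes, NOXA made up a median of 30.5% in NC, 11.7% in COM and 10.9% in COM+Met. BIM made up 48.2%, 51.0% and 33.8%, and BID made up 22.0%, 36.8% and 54.7%. The ratio of Bcl2l11 to Bid ranged from 1.95 to 2.40 in NC, and from 0.545 to 0.720 in COM+Met. In COM it was 2.14, 2.41 and 2.31 in COM-1 to COM-3 and 0.711, 0.900 and 0.835 in COM-4 to COM-6, so that the first 3 lay in or near the NC range and the others close to COM+Met.

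The calls among the members were then set against those among all genes. In COM versus NC, 10900 genes were tested, of which 12.7% were called higher and 40.6% lower at an adjusted p below 0.05, and 17.7% passed the threshold with at least a 2-fold change. Among the 10 members 3 were called higher (Bcl2a1b, Bcl2a1d and Bid), 1 lower (Pmaip1), and 1 passed with a 2-fold change (Pmaip1). The groups of 6 did not overlap for 38.2% of genes and for 2 members, Bax and Pmaip1. The median log2 fold change was -0.27 over all genes and 0.16 over the members, and rescaling by median-of-ratios size factors moved the former to 0.0078. Relative to the median gene, the change of Bcl2a1b was 1.22, that of Bcl2a1d 1.12, that of Bid 0.69 and that of Pmaip1 -1.15. With size factors 5 members were called higher, Mcl1 and Bak1 joining the 3 above. That fit called 23.7% of all genes higher and 23.4% lower.

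In COM+Met versus COM, 10364 genes were tested, of which 5.77% were called higher, 7.58% lower and 2.22% with at least a 2-fold change. Of the members 1 was higher (Bcl2a1d), 1 lower (Mcl1) and 0 changed 2-fold. Groups did not overlap for 11.2% of genes and for the same 2 members. Without COM-4 to COM-6, 3 members were higher and 2 lower, in a fit that called 17.8% of all genes higher and 43.4% lower. The median over all genes was 0.0033 and that over the members 0.091.

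In COM+Met versus NC, 10786 genes were tested, of which 19.3% were called higher, 55.9% lower and 19.3% with at least a 2-fold change, and for 57.6% the groups did not overlap. Of the members, 4 were higher (Bcl2a1b, Bcl2a1d, Bak1 and Bid), 4 were lower (Mcl1, Bcl2l11, Bax and Pmaip1), 3 passed with a 2-fold change (Bcl2a1b, Bcl2a1d and Pmaip1), and 8 did not overlap. With size factors 2 members remained lower, Bcl2l11 and Pmaip1, in a fit that called 34.5% of all genes lower. The median log2 fold change was -0.26 over all genes and -0.013 over the members. COM served as the reference of one comparison and NC as that of both others, so the 3 comparisons share samples.

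**Figure D2:**
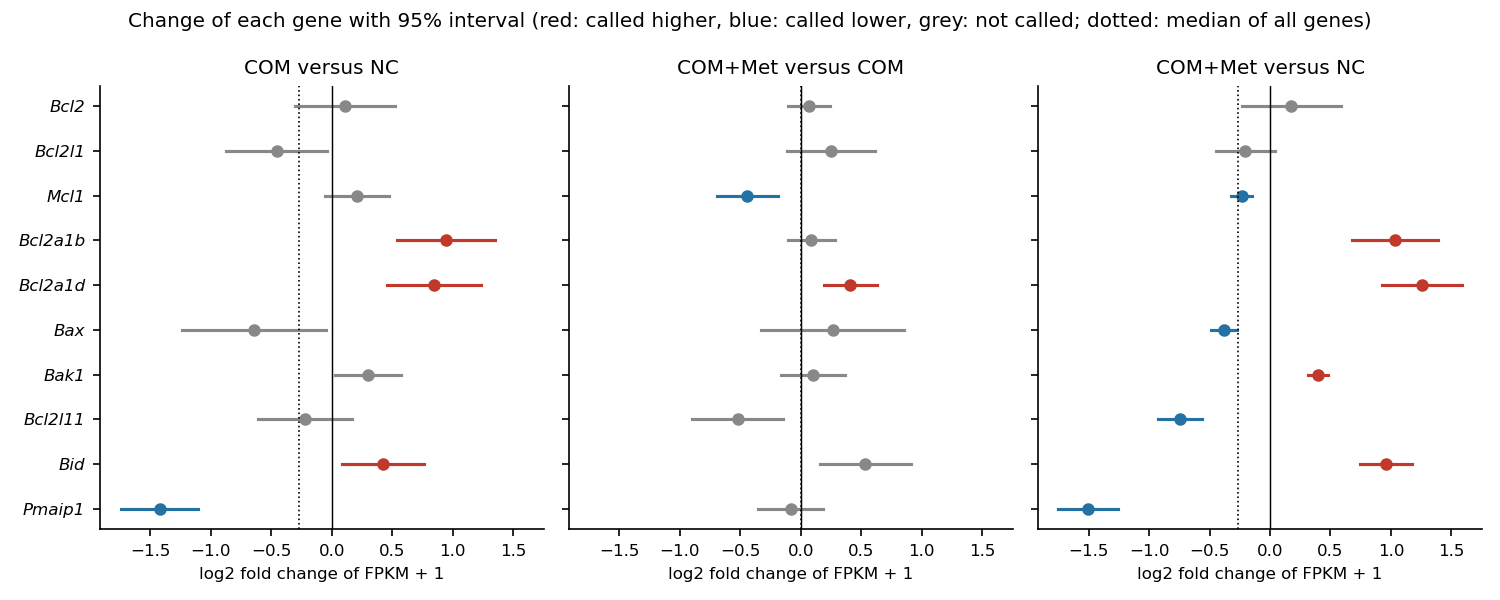
Log2 fold change of FPKM + 1 (x axis) for each gene in the 3 comparisons, with the 95% interval of limma as a line, and calls at an adjusted p below 0.05 in red (higher) or blue (lower). The solid line marks 0 and the dotted line the median of all genes tested, at -0.27, 0.0033 and -0.26. Bcl2a1b and Bcl2a1d lie to the right and Pmaip1 to the left in both comparisons with NC.

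Promoter windows of RefSeq (GRCm38.p6, 250 bases before to 50 after the start) were found for 9 of the 10 members, Pmaip1 being the exception. They were searched on both strands for motifs of factors that act in inflammation and stress. The AP-1 motif was searched as TGANTCA with any base at N, a loose pattern that reads the same on both strands. It was matched, as TGAATCA, in the windows of Bcl2a1b and Bcl2a1d, and in that of Bcl2a1a, but in no other member. Among all 32851 promoter windows 7.8% held the pattern TGANTCA. The windows of the 2 member copies are shown because both genes rose together, with the AP-1 match in capitals. They are Bcl2a1b, chr9:89199023-89199322 on the plus strand, and Bcl2a1d, chr9:88731801-88732100 on the minus strand, each given 5′ to 3′ on its gene's strand:
Bcl2a1b: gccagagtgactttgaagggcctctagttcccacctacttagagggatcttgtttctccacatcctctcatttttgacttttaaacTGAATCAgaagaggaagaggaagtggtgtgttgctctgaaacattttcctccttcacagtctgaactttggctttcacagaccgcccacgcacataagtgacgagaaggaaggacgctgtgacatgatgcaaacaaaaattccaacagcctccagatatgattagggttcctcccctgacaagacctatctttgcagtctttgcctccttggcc
Bcl2a1d: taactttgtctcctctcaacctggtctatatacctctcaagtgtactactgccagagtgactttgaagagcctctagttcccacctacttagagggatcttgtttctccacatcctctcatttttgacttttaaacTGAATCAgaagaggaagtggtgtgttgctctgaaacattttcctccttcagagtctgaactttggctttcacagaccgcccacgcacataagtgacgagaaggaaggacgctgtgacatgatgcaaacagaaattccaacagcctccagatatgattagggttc
The match lies 164 to 158 bases before the RefSeq start of Bcl2a1b and 114 to 108 bases before that of Bcl2a1d. These RefSeq starts differ from the GENCODE starts given above. Both windows share the stretch around the match, so the matches are copies of 1 site and not independent. The FOXO motif TGTTTAC occurred in 1 Bcl2l11 window, 227 to 221 bases before the start, and in 3.6% of all windows. A p53 half-site was found in the Bax window (8.4% of all), and a kappa B match in 1 of the Bcl2l1 windows (8.5%). The interferon motif GAAANNGAA (8.6% of all) and the STAT motif TTCNNNGAA (8.3%) were in no member's window. A match describes letters in the window only.

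Across the 18 samples, the genes with the pattern most like each member were named by Pearson's r of log2(FPKM + 1), as a description over samples that share groups and libraries. For both A1 members the first was Bcl2a1a (r = 0.987 with Bcl2a1b and 0.963 with Bcl2a1d), which shares sequence with them. Bcl2 was closest to Cxcl2 (0.946), Nfkbiz (0.938) and Ets2 (0.922), all of them genes of the inflammatory response. Bcl2l11 was closest to S100a8 (0.96), Bid to Lrp11 (0.956), Pmaip1 to Siglecf (0.975) and Bax to B3gat3 and Romo1 (0.983 each). Bax stood apart in COM-6 (21.7 FPKM), and Bcl2 in NC-5 and NC-6 (0.462 and 0.300 FPKM). Values of r without these libraries were not computed. Mcl1 was closest to Dynll1 (0.943), Bak1 to Ctu1 (0.943), and Bcl2l1 to Hmga1b (0.93) and Vapb (0.88). Among the members themselves, Bcl2a1b and Bcl2a1d had r = 0.967, Bcl2l11 and Bid -0.798, and Bcl2a1d and Pmaip1 -0.816.

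Of 16 other BCL-2 family genes, 10 passed the filter in COM versus NC, with a median log2 fold change of -0.55, against -0.27 over all genes. Of these 10, 1 was called higher and 5 lower, against 12.7% and 40.6% of all genes. The shares of all genes were 5.77% and 7.58% in COM+Met versus COM, and 19.3% and 55.9% in COM+Met versus NC. The family gene that rose in COM was Bcl2a1a (log2 fold change 1.20, limma adjusted p = 0.00036). Death-promoting genes were among those that fell. Bbc3, which encodes the BH3-only protein PUMA, fell by 1.29 (adjusted p = 0.00375), from 8.40 ± 1.65 to 3.19 ± 1.59 FPKM. Bmf, a BH3-only gene linked to loss of attachment, fell by 1.30 (adjusted p = 0.00708), from 11.3 ± 2.65 to 4.67 ± 3.08 FPKM, and reached 1.76 ± 0.158 in COM+Met. Without COM-4 to COM-6 the fall was 0.52 (adjusted p = 0.03). Within COM it was split like Bcl2l11, with 7.04 to 7.71 FPKM in COM-1 to COM-3 and 1.12 to 2.42 in COM-4 to COM-6. Bok, a BAX-like gene, was 2.59 to 3.41 FPKM in NC-1 to NC-4 and 22.0 and 23.3 in NC-5 and NC-6, at most 0.506 in COM (adjusted p = 0.000496, and 1.78e-06 without NC-5 and NC-6), and listed at 0 in every COM+Met sample. COM+Met versus COM gave 0 calls among the 9 tested (limma, 4 at an unadjusted p below 0.05), and 5 lower without COM-4 to COM-6, a fit in which 43.4% of all genes were lower against 7.58% with all samples. COM+Met versus NC gave 2 higher and 5 lower of 10. The mitophagy receptor Bnip3l fell by 1.07 in the latter (adjusted p = 3.17e-09), from 89.7 ± 7.71 to 42.0 ± 1.97 FPKM.

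Of 16 genes of the apoptosome and the caspases, all were tested, with 3 higher and 9 lower in COM versus NC (12.7% and 40.6% of all genes). The counts were 0 and 3 in COM+Met versus COM (5.77% and 7.58%), and 4 and 10 in COM+Met versus NC (19.3% and 55.9%). The median log2 fold change in COM versus NC was -0.43. With size factors the first of these counts became 7 higher and 3 lower (23.7% and 23.4% of all genes). The last became 6 and 6 (36.2% and 34.5%). Without NC-5 and NC-6 the first became 3 and 4 (10.7% and 32.3%). Without COM-4 to COM-6 the counts were 4 and 6 in COM versus NC (17.7% and 36.6% of all genes). They were 2 and 9 in COM+Met versus COM, where that fit called 61.2% of all genes. Casp6 fell from 14.5 ± 1.89 to 8.56 ± 1.32 FPKM in COM (adjusted p = 0.00028) and further to 5.97 ± 0.39 in COM+Met (adjusted p = 0.008 versus COM). Dffa, which encodes the inhibitor of the caspase-activated DNase, fell from 8.55 ± 1.39 to 4.96 ± 1.85 FPKM in COM (adjusted p = 0.0106, and 0.0621 without NC-5 and NC-6). Endog, a mitochondrial nuclease gene, fell from 4.43 ± 0.838 to 2.50 ± 1.06 (adjusted p = 0.0227, and 0.0904 with size factors).

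In the death receptor pathway 11 of 13 genes were tested, with 4 higher and 1 lower in COM versus NC (12.7% and 40.6% of all genes). The counts were 2 and 1 in COM+Met versus COM (5.77% and 7.58%), and 6 and 3 in COM+Met versus NC (19.3% and 55.9%). The median log2 fold change in COM versus NC was 0.58. Without COM-4 to COM-6 the first counts were 2 higher and 2 lower (17.7% and 36.6% of all genes). Those of COM+Met versus COM were 5 and 3 (17.8% and 43.4%). Without COM-6 alone the counts were 4 and 3 in COM versus NC (15.5% and 44.2%). They were 2 and 2 in COM+Met versus COM (10.6% and 15.9%). Cflar, which encodes the caspase-8 inhibitor c-FLIP, rose from 31.1 ± 9.64 to 123 ± 52.1 FPKM in COM (log2 fold change 1.90, limma adjusted p = 0.000163) and was 156 ± 4.29 in COM+Met. Its COM values were 72.6 to 77.9 FPKM in COM-1 to COM-3 and 161 to 183 in COM-4 to COM-6, and all of them lay above NC. Tnfaip3, the NF-kappa B inhibitor A20, rose from 34.7 ± 20.5 to 85.5 ± 19.5 FPKM (log2 fold change 1.51, adjusted p = 0.00649). This was 0.88 (adjusted p = 0.00738) without NC-5 and NC-6, and 1.21 (adjusted p = 0.0837) without COM-4 to COM-6. The death ligand gene Tnfsf10 (TRAIL) was 0.180 ± 0.110 FPKM in NC, 0.701 to 0.822 in COM-1 to COM-3, 9.81 to 13.6 in COM-4 to COM-6 and 4.07 ± 0.248 in COM+Met. Tnf rose in COM+Met versus COM by 1.33 (adjusted p = 0.0226), to 410 ± 31.3 from 193 ± 120 FPKM. Its COM values were 89.4 to 94.4 FPKM in COM-1 to COM-3 and 204 to 348 in COM-4 to COM-6. The rise was 2.13 (adjusted p = 4.35e-10) without COM-4 to COM-6 and 0.52 (adjusted p = 0.0423) without COM-1 to COM-3. Fadd, the adaptor of these receptors, rose by 0.41 (adjusted p = 0.0128), and the receptor gene Fas fell by 0.51 (adjusted p = 0.0177, and 0.097 without COM-1 to COM-3).

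All 8 genes of inhibitor of apoptosis proteins (IAPs) were tested in COM versus NC, with a median log2 fold change of 0.47. Among them 4 were higher and 1 lower (12.7% and 40.6% of all genes). The counts were 5 and 0 with size factors (23.7% and 23.4% of all genes). They were 3 and 0 without NC-5 and NC-6 (10.7% and 32.3%), and 4 and 2 without COM-6 (15.5% and 44.2%). Naip2 rose from 43.8 ± 3.81 to 90.4 ± 15.6 FPKM (limma adjusted p = 3.26e-05), and in COM+Met it was 48.9 ± 2.25, a fall of 0.86 from COM (adjusted p = 0.00055). The Naip genes are similar copies, which makes their separate values uncertain, and their proteins also act as sensors of bacterial products. Birc2, encoding cIAP1, rose by 0.48 (adjusted p = 0.0128) in COM, a call that was lost without NC-5 and NC-6 (0.35, adjusted p = 0.0783) and without COM-1 to COM-3 (0.24, adjusted p = 0.147). Of 8 IAP genes, 6 were lower and 0 higher in COM+Met versus COM (7.58% and 5.77% of all genes), also at an unadjusted p below 0.05 with limma. Without COM-1 to COM-3, Xiap and Birc6 were not called (limma adjusted p = 0.0926 and 0.0606), whereas the similar copies Naip1, Naip2, Naip5 and Naip6 were. That fit called 7.77% of all genes lower. With size factors Birc6 was not called (adjusted p = 0.126). In COM+Met versus NC 3 of 7 were higher and 3 lower (19.3% and 55.9% of all genes), Xiap falling by 0.68 (limma adjusted p = 4.34e-07). The 3 necroptosis genes were all called in both comparisons with NC and 0 of 3 between COM+Met and COM (1 at an unadjusted p below 0.05 with limma, and all 3 without COM-4 to COM-6, when 61.2% of all genes were called). Their median log2 fold change in COM versus NC was 2.06, against -0.27 over all genes. Zbp1, a sensor of nucleic acids, rose from 7.70 ± 2.59 to 129 ± 44.1 FPKM in COM (adjusted p = 1.31e-07), and Mlkl, the membrane-permeabilising executioner, from 11.3 ± 1.10 to 56.3 ± 29.2 (log2 fold change 2.06, adjusted p = 8.08e-05). Mlkl was 29.9 to 31.8 FPKM in COM-1 to COM-3 and 72.4 to 98.4 in COM-4 to COM-6, and its log2 fold change was 1.38 (adjusted p = 2.07e-06) without the latter. The kinase gene Ripk3 fell from 27.8 ± 3.97 to 8.29 ± 2.86 FPKM (adjusted p = 3.05e-05).

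Pmaip1 and Bbc3 are known p53 targets, and 11 of 12 other p53 response genes were tested. In COM versus NC 1 was higher and 7 lower (12.7% and 40.6% of all genes). The counts were 1 and 0 of 10 in COM+Met versus COM (5.77% and 7.58%), and 2 and 6 in COM+Met versus NC (19.3% and 55.9%). The median log2 fold change in COM versus NC was -0.46. Mdm2, the p53 antagonist, was the gene that rose, from 30.5 ± 3.16 to 76.1 ± 42.5 FPKM (log2 fold change 1.13, limma adjusted p = 0.00518). It was 40.8 to 45.7 FPKM in COM-1 to COM-3 and 85.9 to 150 in COM-4 to COM-6, and its log2 fold change was 0.49 (adjusted p = 0.00155) without the latter. Trp53inp1 fell from 15.1 ± 2.34 to 4.88 ± 1.22 FPKM (adjusted p = 7.79e-06). Perp was 7.72 to 9.60 FPKM in NC-1 to NC-4, 60.3 and 62.2 in NC-5 and NC-6, and at most 0.923 in COM (adjusted p = 9.97e-05). Without NC-5 and NC-6 the counts for COM versus NC were 1 higher and 5 lower (10.7% and 32.3% of all genes). Without COM-4 to COM-6 those for COM+Met versus COM were 3 and 4 (17.8% and 43.4%). Phlda3 was the gene that rose in COM+Met versus COM (0.75, adjusted p = 0.0271, and 0.39 with adjusted p = 0.145 without COM-1 to COM-3).

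**Figure D3:**
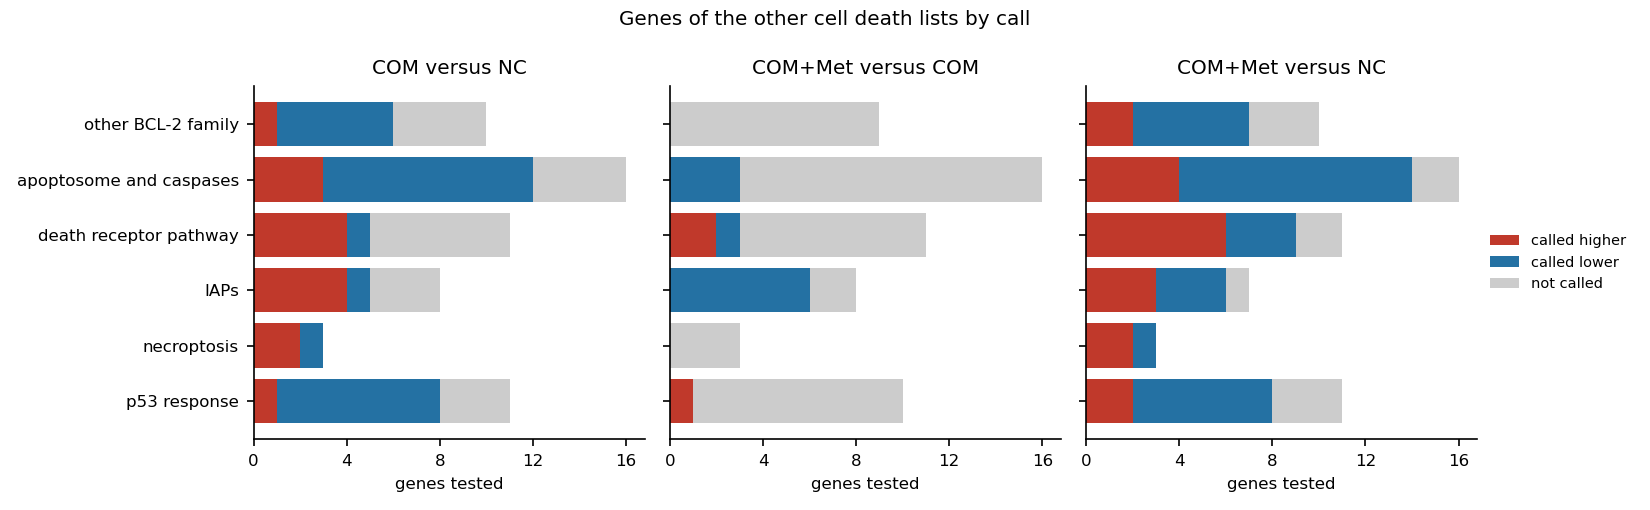
Number of genes tested (x axis) in each of the 6 other cell death lists, stacked by call at an adjusted p below 0.05, for the 3 comparisons. In COM versus NC 9 of 16 apoptosome and caspase genes are lower (40.6% of all genes), and 4 of 8 IAP genes are higher (12.7% of all genes). Between COM+Met and COM 6 of 8 IAP genes are lower (7.58% of all genes), among them the similar copies Naip1, Naip2, Naip5 and Naip6. No gene of the other BCL-2 family or necroptosis lists is called there.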

How the data were processed

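The authors deposited one table of FPKM values per gene and sample, with replicates kept apart, and no read counts. The submitters' processing notes list the aligner Bowtie (0.12.2) along with the builds mm8 and mm9, giving no roles. The quantifier, the annotation and the strand setting were not given in the sources used here. Samples were grouped by their titles, and all 18 columns were used. Tests used log2(FPKM + 1) of genes averaging 1 FPKM or more in the 12 samples of a comparison, fitted with limma 3.58.1 (eBayes with a trend, two-sided) under R 4.3.3. P-values were adjusted by Benjamini-Hochberg over all genes tested. A fold change on this scale understates the change of low genes. The code was tested on simulated data. A planned exact permutation test for members below the filter applied to none. The members and gene lists were chosen with earlier results of these data known. All 10 members were named, and from each other list up to 4 genes per comparison with the largest change at an adjusted p below 0.05, and for each member up to 3 genes of the most similar pattern. Some genes that this rule names are not reported here. The marker genes named (Cdh1, S100a8, Lcn2 and others) and the overlapping genes Gm29094, Ggnbp1 and Bcl2l13 were added after their values were seen, as were the values of the other lists with samples omitted or rescaled and the neutrophil sum without Lcn2. Positions and transcripts came from GENCODE M21 (GRCm38), another build than those of the notes, and promoter windows from RefSeq. Descriptive values came from pandas 2.3.3 and numpy 2.4.6 in Python 3.11.15, and plots from matplotlib 3.10.9. Alternatives were pseudocounts of 0.1 and 5, no filter or one at 5 FPKM, 3 rescalings, a replicate block, all 18 samples in 1 fit, sample weights and omission of samples.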

Additional observations from a re-analysis of the deposited data

Results flagged for a closer look

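In 7 of 30 checks of a gene within a group of 6, the highest or lowest sample stood apart from the rest by Dixon's test, which by chance flags about 1 in 20 groups. COM-6 accounted for 4 of them and was the lowest of its group each time, with 201.9 FPKM of Bcl2a1b, 101.8 of Bcl2a1d, 21.66 of Bax and 37.47 of Bak1. COM+Met-1 was the highest of its group for Bid (38.73 FPKM) and for Pmaip1 (7.094 FPKM). NC-2 was the highest NC sample for Bcl2a1d (125.2 FPKM). Without COM-6 the log2 fold change of Bax in COM versus NC was -0.34 in place of -0.64, and that of Bak1 0.41 in place of 0.30.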

How the results depend on the processing

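Depth is unknown from FPKM, which limits statements on low genes such as Bcl2. In COM versus NC, where 3 members were higher and 1 lower, the higher count was 5 with size factors and with quantile normalisation. With size factors 23.7% of all genes were higher. The lower count was 2 with equal sums, quantile normalisation or NC-5 and NC-6 omitted, 3 with all 18 samples, sample weights, COM-4 to COM-6 omitted or COM-1 to COM-3 omitted, and 1 to 2 without single samples. Of all genes, 32.3% were lower without NC-5 and NC-6, 36.6% without COM-4 to COM-6 and 50.2% without COM-1 to COM-3. In COM+Met versus COM, with 1 higher and 1 lower, the lower count was 2 with equal sums, quantile normalisation, all 18 samples, sample weights or COM-4 to COM-6 omitted, the higher count was 3 with sample weights or COM-4 to COM-6 omitted, and without single samples each count ran from 0 to 2. In COM+Met versus NC the lower count of 4 became 2 with size factors, when 34.5% of all genes were lower. Bcl2l1 was called lower there with sample weights (-0.33, limma adjusted p = 0.000395) and with NC-5, NC-6 or both omitted. Bax was not called with all 18 samples in 1 fit, and Bcl2 was called higher with quantile normalisation.

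Directions turned only in values that were not called, except Mcl1 in COM+Met versus NC. In COM versus NC, Bcl2l11 gave 0.086 with size factors, 0.22 with sample weights (adjusted p = 0.0335) and 0.15 with COM-4 to COM-6 omitted. Bcl2 gave -0.10 with weights, -0.20 with NC-5 and NC-6 omitted and -0.031 to 0.20 without single samples, and Mcl1 gave -0.0032 with weights. For COM+Met versus COM, Bax gave -0.059 with weights, -0.061 with COM-4 to COM-6 omitted and -0.034 to 0.35 without single samples. Bak1 gave -0.018 to 0.15 without single samples, and Pmaip1 0.092 with weights and 0.14 with COM-4 to COM-6 omitted. For COM+Met versus NC, Bcl2l1 gave 0.096 with size factors and 0.010 with quantile normalisation, Mcl1 0.079 with size factors, and Bcl2 -0.087 with weights and -0.13 with NC-5 and NC-6 omitted. The cause was not tested.

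Samples of the same number did not deviate together from their group means (0 of 6 pairs with r over 0.1 in each comparison, lowest r -0.222). The splits of libraries within groups are part of these deviations, so the check cannot tell if samples of the same number share a mouse or culture. The replicate block left 0 members higher and 0 lower in COM+Met versus COM (limma, adjusted p = 0.0937 for Mcl1 and 0.0945 for Bcl2a1d).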
